A study of Mus musculus with 6 samples.

Results

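The cytochrome P450 superfamily was described in endothelial cells sorted from mouse liver. Members were the genes whose symbol consists of Cyp, a family number, a subfamily letter and a gene number. This left out Cyp51 and symbols with a further ending, such as Cyp3a41a, so subfamily sums cover members only. Of 26264 genes in the expression table, 93 were members, and they fell into 38 subfamilies. The libraries came from C57BL6 mice kept for 1 month on a diet with 1200 ppm PLX5622 (n = 3) or on a control diet (n = 3). PLX5622, given by mouth, blocks CSF1R, a growth factor receptor that tissue macrophages need for survival. A single liver lobe was dissociated, cells with the endothelial surface protein CD31 were enriched by sorting, and non-stranded libraries were prepared from polyadenylated RNA. The sources used here give neither the age nor the sex of the animals. The labels call the samples biological replicates.

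Cytochromes P450 are heme enzymes that use oxygen and electrons from the reductase encoded by Por to oxidize drugs, fatty acids, sterols, retinoids and steroids. In liver most of the drug-metabolizing members are products of hepatocytes. Their transcription is raised by ligand-activated receptors, among them CAR (Nr1i3) and PXR (Nr1i2), which classically induce Cyp2b, Cyp2c and Cyp3a genes, AHR, which induces Cyp1 genes, and PPAR alpha, which induces Cyp4a genes. Endothelial cells are known to express other members, such as the retinoic acid hydroxylases of family Cyp26 and the AHR target Cyp1b1.

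Levels are given in TPM, each gene's share of all transcripts after scaling reads by length. Reads recovered from the tables numbered 14518134 to 32732619 per library. The 16 endothelial markers were detected in every library, with a mean log2(TPM + 1) of 9.73, 9.94 and 9.99 in PLX5622 replicates 1 to 3 and of 9.65, 10.1 and 10.1 in control replicates 1 to 3. The 24 hepatocyte markers, which held no P450 gene, were detected in every library too, at 5.70, 6.07 and 6.84 against 7.23, 6.30 and 6.30 on the same scale. Control replicate 1 was thus highest in hepatocyte markers and lowest in endothelial ones, and PLX5622 replicate 1 was lowest in hepatocyte markers. The 10 Kupffer cell markers stood at 2.01, 2.91 and 2.63 on PLX5622 and at 3.42, 2.91 and 3.57 on control. In sorted bulk RNA, fewer cells of a type and less RNA per cell cannot be told apart.

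The P450 genes with the greatest difference between diets were Cyp2b10 and members of subfamily Cyp2c, and they stood higher on PLX5622. Of the 93 members, 49 averaged 1 TPM or more across the 6 libraries and were tested with limma on log2(TPM + 1), within a fit of 13739 genes. Cyp2b10, Cyp2c29, Cyp2c54 and Cyp2c50 had an unadjusted p under 0.05 and stood higher, which is 4 of 49 members (8.16%) beside 1.64% of all genes. No member had an unadjusted p under 0.05 on the lower side, beside 1.7% of all genes. After Benjamini-Hochberg adjustment over all genes limma called 0 members and 0 genes (0% of genes), with a smallest adjusted p of 0.99998. Of the tested members 4 were higher without overlap between diets (8.16%, beside 4.18% of all genes tested), and 0 were lower without overlap, beside 4.5%. Cyp2b10 is in both counts of 4. It reached the mean of 1 TPM only through its PLX5622 libraries, so it could enter the test only as a higher gene. With the limit set at a mean of 5 TPM, Cyp2b10 was not tested, and Cyp2c29, Cyp2c54 and Cyp2c50 remained. Cyp2c54 and Cyp2c50, with control means of 1.02 and 2.17 TPM, passed that limit only through their PLX5622 libraries. They too could enter that fit only as higher genes. The control mean of Cyp2c29 was 11.3 TPM. Among members too low to test, Cyp2d11 and Cyp4a31 were lower without overlap. Over the 49 members the median log2 fold change was 0.12, with 35 above 0 and 14 below, against a median of -0.02 over all genes, of which 46.2% were above 0. Among the 35, Cyp2c37 and Cyp4a14 also reached the mean of 1 TPM only through PLX5622 libraries, with control means of 0.692 and 0.508 TPM. Placing Cyp2b10, which had no control reads, at its bound left the median at 0.12. It could not move the median, because the fitted value and the bound both lie above it. The count of 4 depended on single libraries. It was 8 of 50 tested members without PLX5622 replicate 1, beside 1.7% of all genes in that fit, and 7 of 50 without control replicate 1, beside 2.66%. It fell to 3 of 48 without PLX5622 replicate 3, beside 1.25%, and to 3 of 50 without control replicate 3, beside 1.59%. Without PLX5622 replicate 3, Cyp2d26, Cyp2j5 and Cyp2f2 were lower at an unadjusted p under 0.05 (limma), beside 1.79% of all genes.

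**Figure D1:**
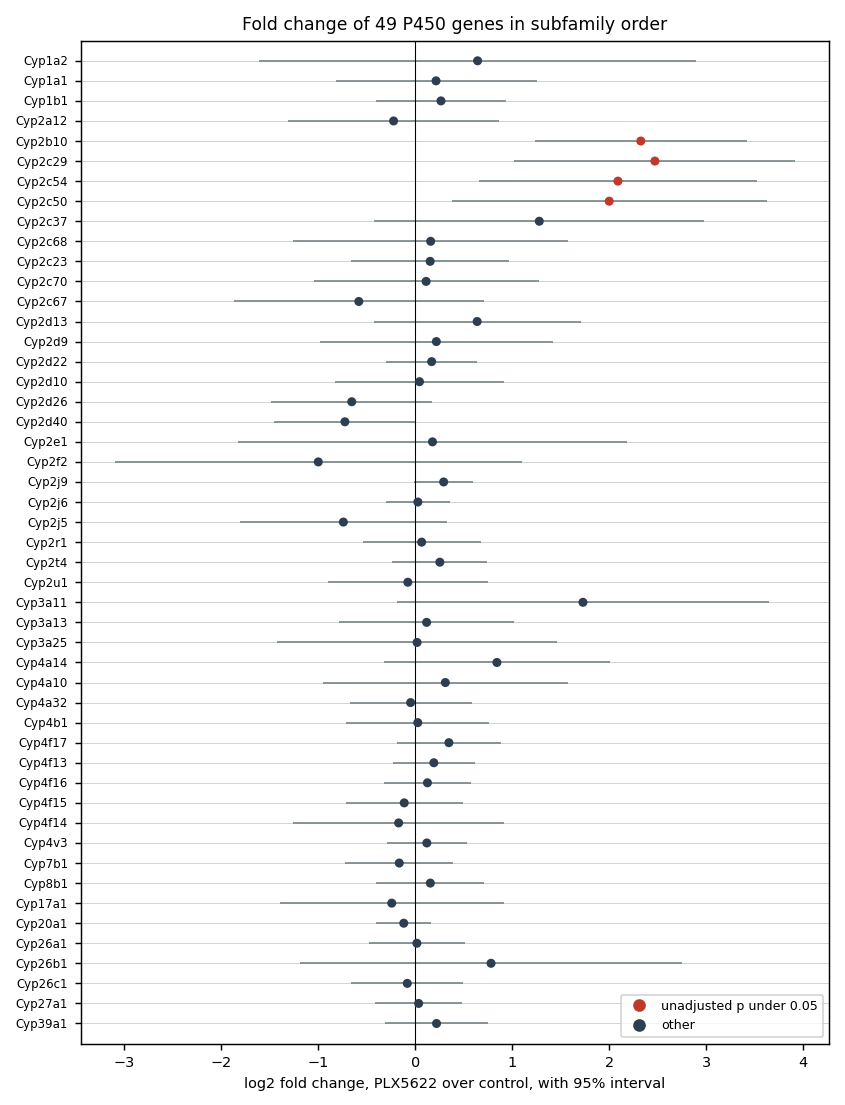
Log2 fold change of the 49 tested P450 genes, PLX5622 over control, on the x axis with 95% intervals from the limma fit, in subfamily order down the y axis; red points have an unadjusted p under 0.05. The 4 red points, Cyp2b10, Cyp2c29, Cyp2c54 and Cyp2c50, lie between 2.00 and 2.47, while all other intervals span 0.

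The authors' deposited table, made with DESeq2, holds 55 of the members and calls a pair of them at an adjusted p under 0.05, both higher, beside 0.0464% of its genes. These are Cyp2b10, with a log2 fold change of 8.63 (SE 1.38), and Cyp2c54, with 3.28 (SE 0.653). Before adjustment, 7 members pass a p of 0.05 on the higher side in the authors' deposited table, beside 1.55% of its genes, and 1 passes on the lower side, beside 1.63%. On the higher side the authors' deposited table has Cyp2b10, Cyp2c54, Cyp2c29, Cyp4a14, Cyp2c37, Cyp2c50 and Cyp2a5, and on the lower side Cyp2d11.

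Subfamily Cyp2b includes the classical targets of CAR. Cyp2b10, a drug-oxidizing enzyme, stood at 1.78, 3.63 and 8.76 TPM in PLX5622 replicates 1 to 3 and was listed at 0 in each control library. These values rested on 26, 41 and 118 reads in the PLX5622 libraries, against 0 reads in all control libraries. Every PLX5622 library held the transcript and no control library did, and the PLX5622 mean was at least 22.8-fold higher than the level that 3 reads in each control library would give. Without PLX5622 replicate 3, the highest library, this bound was 13.1-fold. The limma log2 fold change was 2.32 (95% interval 1.23 to 3.42, unadjusted p = 0.00131), a value that depends on the pseudocount of 1 TPM and is no bound. Of the other 4 Cyp2b genes, Cyp2b9 was listed at 0.0684, 0.443 and 0 TPM on PLX5622 and at 0 in each control library, and Cyp2b13, Cyp2b19 and Cyp2b23 were listed at 0 in every library.

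Subfamily Cyp2c, which oxidizes drugs and turns arachidonic acid into epoxides, had 15 members in the table, and 8 were tested. Its summed level was 43.7, 150 and 166 TPM in PLX5622 replicates 1 to 3, against 68.8, 36.6 and 14.9 TPM in control replicates 1 to 3. PLX5622 replicate 1 thus lay below control replicate 1 in the sum, and the other PLX5622 libraries lay above every control library. Cyp2c29, the most abundant member, stood at 23.7, 78.2 and 113 TPM on PLX5622 and at 14.5, 15.0 and 4.32 TPM on control. Each PLX5622 library lay above each control library, and the log2 fold change was 2.47 (95% interval 1.02 to 3.92, unadjusted p = 0.00458, limma). Cyp2c54 stood at 1.88, 15.9 and 11.8 TPM on PLX5622 and at 0.872, 1.28 and 0.894 TPM on control, again without overlap but with PLX5622 replicate 1 close to the control libraries. Its log2 fold change was 2.09 (95% interval 0.65 to 3.52, unadjusted p = 0.0104, limma). Cyp2c50 stood at 3.07, 20.3 and 14.4 TPM on PLX5622 and at 4.11, 2.06 and 0.338 TPM on control, so that the diets overlapped through PLX5622 replicate 1 and control replicate 1. Its log2 fold change of 2.00 (95% interval 0.38 to 3.62, unadjusted p = 0.0221, limma) lost an unadjusted p under 0.05 without PLX5622 replicate 2, PLX5622 replicate 3 or control replicate 3, and with voom on the recovered reads.

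Cyp2c37 showed a similar spread. It stood at 0.211, 8.03 and 4.28 TPM on PLX5622 and at 1.36, 0.720 and 0 TPM on control, with a log2 fold change of 1.28 (95% interval -0.42 to 2.98). PLX5622 replicates 2 and 3 were above every control library, and PLX5622 replicate 1 was below control replicates 1 and 2. Cyp2c55, which missed the level needed for testing, had 6, 20 and 14 reads on PLX5622 and 10, 0 and 0 reads on control. The other tested members of the subfamily were closer to 0. Cyp2c67 was at -0.58, Cyp2c68 at 0.16, Cyp2c23 at 0.15 and Cyp2c70, which makes the muricholic acids of mouse bile, at 0.11 on the log2 scale. Cyp2c70 stood at 9.70, 13.1 and 10.7 TPM on PLX5622 and at 25.0, 8.61 and 4.63 TPM on control, within the control range.

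**Figure D2:**
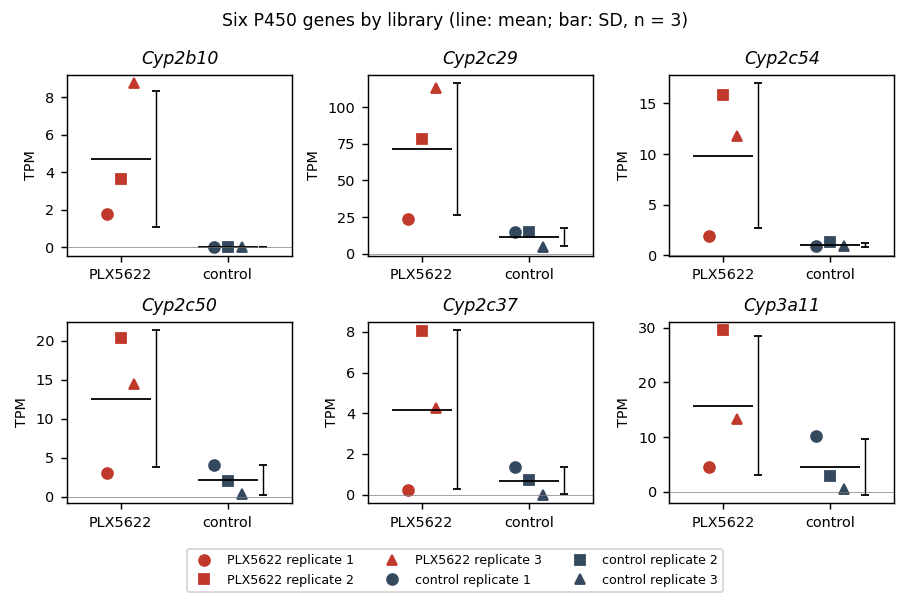
TPM (y axis) of 6 P450 genes in each PLX5622 library (red, left) and each control library (dark, right); marker shape gives the replicate number, the line the mean and the bar the SD (n = 3). Cyp2b10 was listed at 0 in the control libraries, and PLX5622 replicate 1 was the lowest PLX5622 library in each of the 6 genes.

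The Cyp2c genes lie side by side on chromosome 19 in the mouse reference assembly GRCm38.p6, with Cyp2c23 apart from the rest. In their order along the chromosome, Cyp2c29 was flanked by Cyp2c66, at a mean of 0.0510 TPM, and by Cyp2c39, at 0.0111 TPM. Next came Cyp2c38, Cyp2c67, Cyp2c68, Cyp2c40 and Cyp2c69, of which Cyp2c67 and Cyp2c68 were tested. Cyp2c37, Cyp2c54 and Cyp2c50 are direct neighbours of one another, and Cyp2c70 follows them. The neighbouring Cyp2c37, Cyp2c54 and Cyp2c50, at 1.28, 2.09 and 2.00 on the log2 scale, were thus set between Cyp2c69, which was too low to test, and Cyp2c70 at 0.11. These neighbours also share sequence. Of all windows of 50 bases in their reference transcripts, 30.1% in Cyp2c37, 25.7% in Cyp2c54 and 30.7% in Cyp2c50 occur unchanged in a transcript of another gene, and the closest gene was Cyp2c50 for Cyp2c37 and for Cyp2c54. In Cyp2c29 the share was 2.08%, and in Cyp2b10 it was 9.69%, with Cyp2b13 closest. Reads that fall in such windows can be assigned to a neighbour or dropped, and the sources used here give neither the read length nor the handling of such reads.

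**Figure D3:**
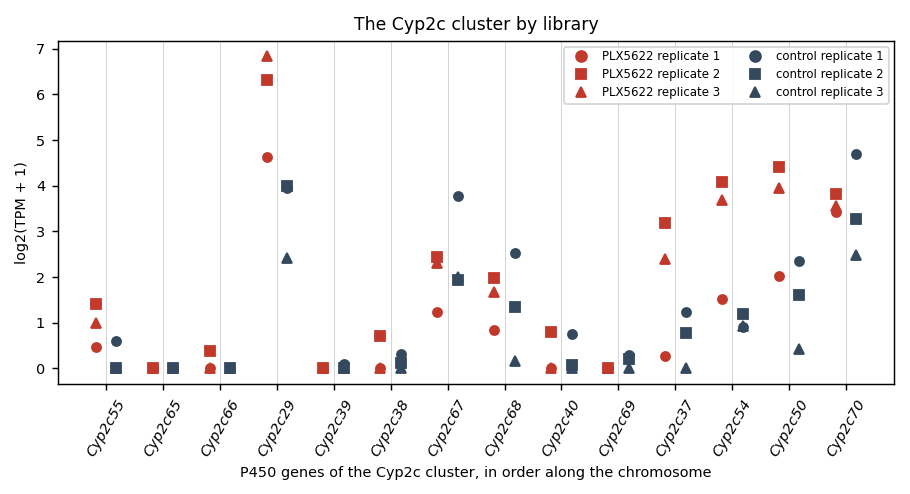
Log2(TPM + 1) (y axis) in each PLX5622 library (red) and each control library (dark) for 14 Cyp2c genes in their order along the chromosome (x axis). In Cyp2c29, Cyp2c37, Cyp2c54 and Cyp2c50, PLX5622 replicates 2 and 3 lie above every control library, while PLX5622 replicate 1 lies within the control range in Cyp2c37 and Cyp2c50.

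Promoters are shown for Cyp2b10, for Cyp2c29 and Cyp2c50, which had an unadjusted p under 0.05, and for Cyp2c37, a neighbour of Cyp2c50 that did not. The RefSeq table of promoter windows (GRCm38.p6, 250 bases before to 50 after the annotated start) was matched by symbol to 38 of the 49 tested members, and 4 of the leading genes had a window. Capitals in the Cyp2c genes mark the longest run shared exactly by all of these Cyp2c windows, and in Cyp2b10 a match to TTGCNNAA, a motif of C/EBP factors.
Cyp2b10, chr7:25897408-25897707, plus strand: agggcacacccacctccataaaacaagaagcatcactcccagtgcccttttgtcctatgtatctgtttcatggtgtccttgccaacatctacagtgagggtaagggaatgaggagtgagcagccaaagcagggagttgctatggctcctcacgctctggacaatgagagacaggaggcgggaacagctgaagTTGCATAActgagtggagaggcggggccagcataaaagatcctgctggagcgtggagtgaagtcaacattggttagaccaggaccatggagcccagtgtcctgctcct
Cyp2c29, chr19:39286835-39287134, plus strand: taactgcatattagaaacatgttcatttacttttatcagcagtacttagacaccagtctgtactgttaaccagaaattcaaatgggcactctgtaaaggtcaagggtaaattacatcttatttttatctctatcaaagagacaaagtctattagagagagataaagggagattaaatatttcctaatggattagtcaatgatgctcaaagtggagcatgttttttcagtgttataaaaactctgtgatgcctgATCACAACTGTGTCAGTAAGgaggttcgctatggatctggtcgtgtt
Cyp2c50, chr19:40089429-40089728, plus strand: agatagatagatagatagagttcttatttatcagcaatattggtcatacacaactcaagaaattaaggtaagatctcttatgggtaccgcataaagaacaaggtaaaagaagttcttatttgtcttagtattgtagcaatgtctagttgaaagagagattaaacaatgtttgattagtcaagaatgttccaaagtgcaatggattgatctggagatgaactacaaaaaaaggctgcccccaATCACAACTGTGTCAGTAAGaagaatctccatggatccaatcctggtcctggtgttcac
Cyp2c37, chr19:39992174-39992473, plus strand: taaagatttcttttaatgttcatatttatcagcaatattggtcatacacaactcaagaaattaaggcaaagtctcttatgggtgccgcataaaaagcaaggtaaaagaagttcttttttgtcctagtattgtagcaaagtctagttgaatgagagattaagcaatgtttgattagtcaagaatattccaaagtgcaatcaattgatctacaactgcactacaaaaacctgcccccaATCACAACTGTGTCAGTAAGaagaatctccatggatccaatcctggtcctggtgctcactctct

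The shared run is 20 bases long and occurred in 3 of 27025 promoter windows, those of Cyp2c29, Cyp2c37 and Cyp2c50. It began 9 bases before the annotated start in Cyp2c50, 14 bases before it in Cyp2c37 and just after it in Cyp2c29. In a pairwise alignment the Cyp2c50 and Cyp2c37 windows matched in 264 of 300 bases (88%), with a longest shared run of 63 bases. Both strands of each window were searched for short motifs. TATAAA, the TATA box, was found in the Cyp2c29 window, 19 bases before the start, and in 17 of 38 member windows (44.7%), beside 14.2% of all windows. AGGTCA, the core that many nuclear receptors bind, was found in the Cyp2c29 window and in 8 of 38 member windows (21.1%), beside 16% of all windows. TTGCNNAA was found in the windows of Cyp2b10 and Cyp2c37 and in 7 of 38 member windows (18.4%), beside 10.8% of all windows. CCAAT was found in the windows of Cyp2b10, Cyp2c50 and Cyp2c37 and in 21 of 38 member windows (55.3%), beside 37.9% of all windows. The HNF4-type direct repeat and the HNF1 motif were in 0 of 38 member windows, beside 0.0444% and 0.0074% of all windows. These matches describe letters in the windows only.

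Subfamily Cyp3a holds the main drug-oxidizing P450 genes under PXR. Cyp3a11, its most abundant member, stood at 4.51, 29.6 and 13.2 TPM in PLX5622 replicates 1 to 3 and at 10.3, 2.94 and 0.482 TPM in control replicates 1 to 3. PLX5622 replicate 1 lay within the control range and the other PLX5622 libraries above it, with a log2 fold change of 1.73 (95% interval -0.19 to 3.64, unadjusted p = 0.0707, limma). On the log2 scale Cyp3a25 was at 0.02 and Cyp3a13 at 0.12. Cyp3a25 shares 25% of its windows of 50 bases with Cyp3a59, a gene detected in a single library. The summed level of the 7 Cyp3a members was 6.44, 36.1 and 30.3 TPM on PLX5622 and 16.9, 8.49 and 6.53 TPM on control.

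The zonated hepatocyte P450 genes Cyp2e1, Cyp1a2 and Cyp2f2 varied between libraries of a diet by more than they differed between diets. Cyp2e1, the ethanol-oxidizing enzyme of pericentral hepatocytes, stood at 13.4, 155 and 44.7 TPM on PLX5622 and at 72.5, 55.0 and 16.3 TPM on control. Cyp1a2, another pericentral enzyme, stood at 2.04, 16.8 and 3.69 TPM on PLX5622 and at 14.2, 2.64 and 0.209 TPM on control. Cyp2f2, a periportal enzyme that oxidizes naphthalene, stood at 19.1, 2.83 and 65.4 TPM on PLX5622 and at 48.7, 22.6 and 34.0 TPM on control. PLX5622 replicate 2 was thus the highest library in both pericentral genes and the lowest in the periportal one. Their log2 fold changes were 0.18 (95% interval -1.83 to 2.18) for Cyp2e1, 0.64 (95% interval -1.61 to 2.90) for Cyp1a2 and -1.0 (95% interval -3.10 to 1.10) for Cyp2f2. The other markers of these zones followed this order only in part. The 7 pericentral markers had a mean log2(TPM + 1) of 3.31, 4.06 and 3.82 on PLX5622 and of 4.14, 3.88 and 3.44 on control, and the 10 periportal markers of 3.57, 3.19 and 4.64 on PLX5622 and of 4.66, 3.99 and 4.34 on control. PLX5622 replicate 2 was the lowest library in periportal markers and the highest PLX5622 library in pericentral ones, but control replicate 1 was higher in these. The pericentral Lhpp, Gulo and Rgn were highest in PLX5622 replicate 2. Glul was highest in control replicate 2, Oat and Rhbg in control replicate 1, and Slc1a2 in PLX5622 replicate 3. Glul, Oat and Lhpp varied little, with a coefficient of variation of 10.6%, 13.7% and 6.91% over the 6 libraries. The summed hepatocyte markers ranged from 2099 to 6952 TPM over the same libraries. Rhbg had at most 20 reads in a library. PLX5622 replicate 2 was also the highest library in Cyp2c54, Cyp2c50, Cyp2c37 and Cyp3a11, whereas Cyp2b10 and Cyp2c29 were highest in PLX5622 replicate 3. Control replicate 3 was lowest in Cyp2c29, Cyp2c50, Cyp2c37, Cyp3a11 and Cyp1a2, but Cyp2c54 was lowest in control replicate 1 and Cyp2e1 in PLX5622 replicate 1. The part of zonal hepatocyte RNA in the values of the zonal and of the leading P450 genes was not tested.

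**Figure D4:**
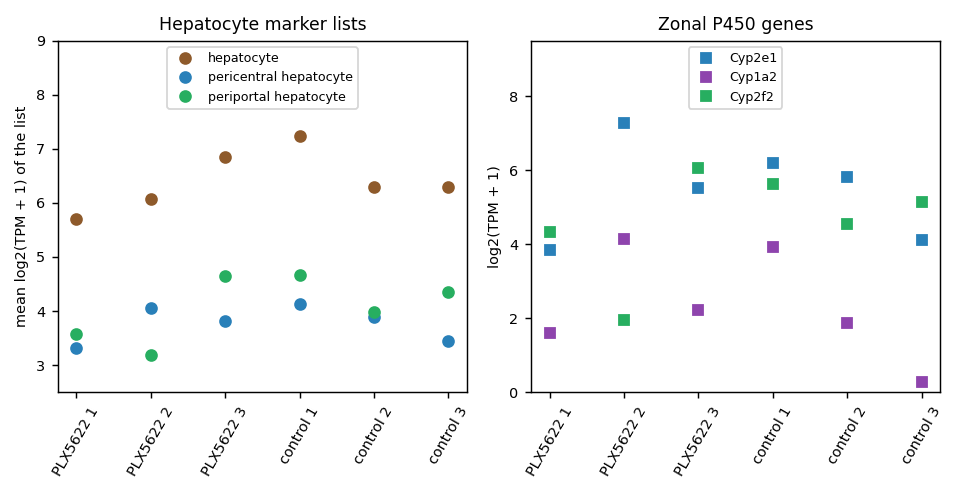
Left, mean log2(TPM + 1) of the hepatocyte, pericentral and periportal marker lists in each library; right, log2(TPM + 1) of Cyp2e1, Cyp1a2 and Cyp2f2 in each library. In PLX5622 replicate 2 Cyp2e1 was highest, at 155 TPM, and Cyp2f2 lowest, at 2.83 TPM, as the periportal list was also lowest there.

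The leading genes were set against the hepatocyte markers of the same library. Per 1000 TPM summed over the 24 hepatocyte markers, Cyp2c29 stood at 11.3, 31.9 and 27 TPM on PLX5622 and at 2.08, 4.43 and 1.42 TPM on control. On this scale Cyp2c50 stood at 1.46, 8.28 and 3.44 against 0.592, 0.610 and 0.111, and Cyp3a11 at 2.15, 12.1 and 3.16 against 1.48, 0.871 and 0.159. The diets no longer overlapped in Cyp2c50 and Cyp3a11. The divisor averaged 2913 TPM on PLX5622 and 4457 TPM on control, and a lower divisor raises the ratio of any gene. Within this divisor Alb alone averaged 657 TPM on PLX5622 and 1477 TPM on control. On this scale 8 of 49 members were higher without overlap and 0 lower, beside 4.5% of all genes higher and 0.189% lower. Cyp8b1, Cyp4v3 and Cyp3a13 are among the 8 by narrow margins. With the hepatocyte level as a covariate in the limma fit the log2 fold changes were 2.66 for Cyp2b10, 3.00 for Cyp2c29, 2.39 for Cyp2c54, 2.56 for Cyp2c50 and 2.34 for Cyp3a11. In that fit 7 of 49 members stood higher at an unadjusted p under 0.05, beside 1.54% of all genes, and 0 genes passed after adjustment. Among the 7 were Cyp2b10 and Cyp2c37, which reached the limit for testing only through their PLX5622 libraries. Hepatocyte markers themselves had a median log2 fold change of -0.41, with 22 of 24 below 0. Among them 1, Alb, was lower at an unadjusted p under 0.05, beside 1.7% of all genes in the main fit.

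Subfamily Cyp2d was led by Cyp2d22, a relative of the human drug-oxidizing enzyme CYP2D6, at 174, 177 and 209 TPM on PLX5622 and at 119, 179 and 212 TPM on control. The libraries overlapped, and the log2 fold change was 0.17 (95% interval -0.30 to 0.64). Of the 6 tested Cyp2d genes 4 were above 0 and 2, Cyp2d26 and Cyp2d40, were below it. Cyp2d40 stood at 1.98, 2.42 and 1.65 TPM on PLX5622 and at 4.86, 5.24 and 2.33 TPM on control, with a log2 fold change of -0.73 (95% interval -1.46 to 0.0033, unadjusted p = 0.0508, limma). Control replicate 3 reached into the PLX5622 range, and the PLX5622 libraries held 17, 16 and 13 reads. Cyp2d11, the lower member in the authors' deposited table, was below the level needed for testing. It had 1, 2 and 0 reads on PLX5622 and 12, 10 and 12 reads on control, with 37.2% of its windows of 50 bases shared with other genes. Cyp2d10, its closest relative by shared windows, stood at 17.8 ± 6.38 TPM on PLX5622 and at 17.7 ± 7.34 TPM on control (SD, n = 3 each).

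Subfamily Cyp2a had 4 members, and Cyp2a12, a hepatic bile acid hydroxylase, was the only one tested. It stood at 6.95, 6.20 and 17.5 TPM on PLX5622 and at 20.4, 6.94 and 8.92 TPM on control, with overlap and a log2 fold change of -0.22 (95% interval -1.31 to 0.87). Cyp2a5, which oxidizes coumarin, rested on a single library: it had 2, 43 and 5 reads on PLX5622 and 3, 8 and 0 reads on control.

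Subfamily Cyp2j holds arachidonic acid epoxygenases, and 3 of its 7 members were tested. Cyp2j6, the most abundant of them, stood at 22.8, 31.4 and 26.7 TPM on PLX5622 and at 25.7, 25.1 and 28 TPM on control, with a log2 fold change of 0.03 (95% interval -0.31 to 0.36). Cyp2j9 stood at 17.8, 18.4 and 18 TPM on PLX5622 and at 15.6, 14.8 and 13.4 TPM on control. The Cyp2j9 libraries did not overlap and the spread on PLX5622 was small, but the difference of 0.29 on the log2 scale (95% interval -0.01 to 0.60, unadjusted p = 0.0578, limma) did not pass. Cyp2j5, the hepatic and renal member, stood lower at 2.71, 2.69 and 8.37 TPM on PLX5622 and 12.4, 4.46 and 7.21 TPM on control, with overlap and a log2 fold change of -0.74 (95% interval -1.81 to 0.33).

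Further genes of family Cyp2 did not pass the test. Cyp2r1, a vitamin D hydroxylase, stood at 5.44, 4.49 and 6.76 TPM on PLX5622 and at 3.67, 6.66 and 5.71 TPM on control, a log2 fold change of 0.06. Cyp2t4 stood at 9.01, 11.3 and 9.32 TPM on PLX5622 and at 9.0, 6.14 and 9.56 TPM on control, a log2 fold change of 0.25. Cyp2u1, a fatty acid hydroxylase, stood at 1.6, 1.07 and 2.15 TPM on PLX5622 and at 3.05, 1.16 and 1.27 TPM on control, a log2 fold change of -0.08. The libraries of the diets overlapped in each of these genes.

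The Cyp1 genes are the classical targets of AHR and oxidize polycyclic aromatic compounds. Cyp1b1 stood at 118, 80.6 and 98.1 TPM on PLX5622 and at 129, 57.3 and 72.3 TPM on control, a log2 fold change of 0.26 (95% interval -0.40 to 0.93). Cyp1a1 stood at 59.4, 54.4 and 42.6 TPM on PLX5622 and at 76.9, 19.5 and 57.5 TPM on control, a log2 fold change of 0.21 (95% interval -0.82 to 1.25). In both genes control replicate 1 was highest and control replicate 2 lowest of all libraries, so that the PLX5622 libraries lay within the control range.

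Family Cyp4 hydroxylates fatty acids and eicosanoids and held the most abundant P450 transcript. Cyp4b1 stood at 735, 1152 and 1015 TPM on PLX5622 and at 558, 1125 and 1300 TPM on control. The PLX5622 libraries lay within the control range, and the log2 fold change was 0.02 (95% interval -0.71 to 0.76). In subfamily Cyp4a, Cyp4a32 led at 18.6, 18.7 and 19.8 TPM on PLX5622 and at 12.1, 23.8 and 26.5 TPM on control, a log2 fold change of -0.05 (95% interval -0.68 to 0.58). Cyp4a32 shares 46.8% of its windows of 50 bases with other genes, most with Cyp4a10. Cyp4a14, a PPAR alpha target with 0.245% of such windows shared, stood at 1.39, 0.467 and 4.53 TPM on PLX5622 and at 0.496, 0.316 and 0.714 TPM on control. It rested on 27, 7 and 81 reads against 12, 9 and 9, with PLX5622 replicate 2 inside the control range and a log2 fold change of 0.84 (95% interval -0.33 to 2.01). Cyp4a10 was at 0.31 (95% interval -0.95 to 1.57). Cyp4a31, too low to test, stood at 0.0512, 0.265 and 0.389 TPM on PLX5622 and at 1.03, 0.837 and 0.552 TPM on control. The diets did not overlap, on 1, 4 and 7 reads against 25, 24 and 7, and 21.8% of its windows of 50 bases are shared with other genes. The summed level of the 5 Cyp4a members averaged 23.4 ± 4.23 TPM on PLX5622 and 23.4 ± 8.11 TPM on control (SD, n = 3 each).

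Subfamily Cyp4f, whose members inactivate leukotrienes and other eicosanoids, had 5 tested genes with log2 fold changes between -0.17 and 0.35. Cyp4f13, its most abundant member, stood at 30.8, 35.8 and 40.6 TPM on PLX5622 and at 26.4, 40 and 28.1 TPM on control, with overlap. Cyp4v3, a fatty acid hydroxylase, stood at 16.9, 20.7 and 26.8 TPM on PLX5622 and at 20.3, 19.5 and 18.4 TPM on control, a log2 fold change of 0.12 (95% interval -0.29 to 0.53).

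No gene of bile acid or oxysterol metabolism passed the test. Cyp27a1, the mitochondrial sterol hydroxylase of the acidic bile acid pathway, stood at 28.2, 47.9 and 42.5 TPM on PLX5622 and at 40.8, 35.5 and 36.9 TPM on control, a log2 fold change of 0.03 (95% interval -0.41 to 0.48). Cyp7b1, an oxysterol hydroxylase, stood at 13.2, 13 and 7.15 TPM on PLX5622 and at 13.1, 11.8 and 11.6 TPM on control, a log2 fold change of -0.17 (95% interval -0.72 to 0.39). Cyp8b1, the enzyme that directs synthesis to cholic acid, stood at 13.1, 12.3 and 14.4 TPM on PLX5622 and at 16.8, 11.5 and 8.42 TPM on control, a log2 fold change of 0.15 (95% interval -0.40 to 0.71). These 3 genes overlapped between diets. Cyp39a1, another oxysterol hydroxylase, stood at 4.09, 5.84 and 5.21 TPM on PLX5622 and at 4.61, 4.59 and 3.38 TPM on control, with overlap and a log2 fold change of 0.22 (95% interval -0.31 to 0.75). Cyp7a1, the rate-limiting enzyme of the classical bile acid pathway, was below the level needed for testing, at 0, 0.558 and 0.0668 TPM on PLX5622 and 0.0247, 0 and 0 TPM on control.

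Family Cyp26 clears retinoic acid. Cyp26b1, the second most abundant P450 transcript, stood at 578, 528 and 226 TPM on PLX5622 and at 57.6, 740 and 315 TPM on control. The control libraries alone spanned a 12.9-fold range, with control replicate 1 lowest and control replicate 2 highest, and the log2 fold change was 0.78 (95% interval -1.19 to 2.75). Cyp26a1 stood at 14.9, 9.06 and 11.3 TPM on PLX5622 and at 12.2, 9.59 and 12.6 TPM on control, a log2 fold change of 0.02 (95% interval -0.48 to 0.51). Cyp26c1 stood at 2.64, 2.67 and 2.78 TPM on PLX5622 and at 2.32, 3.77 and 2.80 TPM on control, a log2 fold change of -0.08 (95% interval -0.66 to 0.49). Both genes overlapped between diets.

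Cyp20a1, an orphan P450 without an established substrate, had the least variation of the 49 tested members. It stood at 59.2, 64.9 and 79.4 TPM on PLX5622 and at 71.7, 73.5 and 74.6 TPM on control, a coefficient of variation of 10.3% over the 6 libraries and a log2 fold change of -0.12 (95% interval -0.40 to 0.16). Cyp17a1, a steroid-synthesizing enzyme, stood at 2.02, 0.181 and 2.42 TPM on PLX5622 and at 3.25, 1.19 and 1.18 TPM on control, with overlap and a log2 fold change of -0.24 (95% interval -1.40 to 0.91). Further steroid-synthesizing genes were too low to test. Cyp11a1 and Cyp21a1 were detected in 2 libraries each, and Cyp11b1, Cyp11b2 and Cyp19a1 were listed at 0 in every library.

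P450 transcript was concentrated in few members. The 93 genes summed to 2099, 2811 and 2408 TPM in PLX5622 replicates 1 to 3 and to 1617, 2650 and 2439 TPM in control replicates 1 to 3. Cyp4b1, Cyp26b1, Cyp2d22, Cyp1b1 and Cyp20a1, the 5 with the highest mean, made up 79.3%, 71.2% and 67.5% of this sum on PLX5622 and 57.9%, 82.1% and 80.9% on control. The share was lowest in control replicate 1, where Cyp4b1 and Cyp26b1 were each at their lowest, at 558 and 57.6 TPM. That library also had the most hepatocyte marker RNA, and a relation to the share was not tested. Among tested members 25 had a mean of 10 TPM or more and 24 lay below that. Of the 49, 14 had their highest value in PLX5622 replicate 3, 14 in PLX5622 replicate 2, 2 in PLX5622 replicate 1 and 12 in control replicate 1, with 3 and 4 in control replicates 2 and 3. Members differed in how much they varied: the coefficient of variation over all libraries was 10.9% in Cyp2j6 and 12.4% in Cyp2j9, but 122% in Cyp2c54, 109% in Cyp2c50 and 107% in Cyp1a2.

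**Figure D5:**
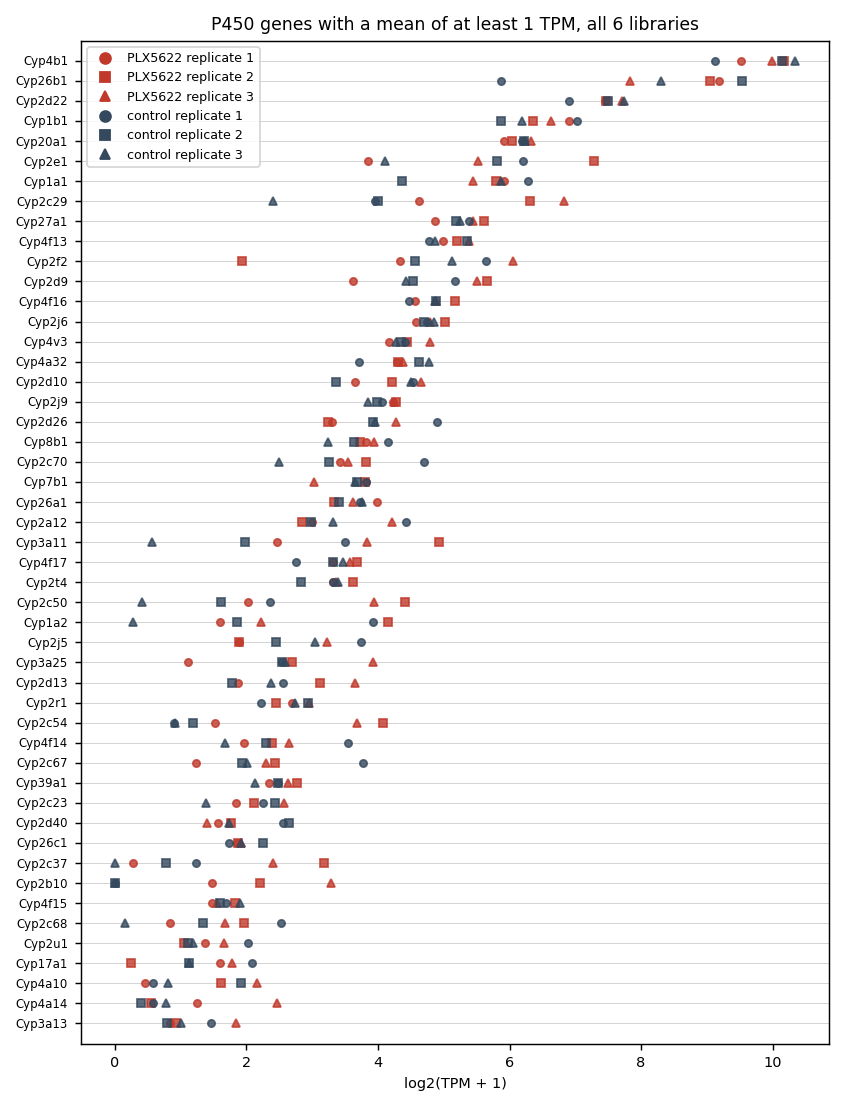
Log2(TPM + 1) (x axis) of the 49 tested P450 genes in each PLX5622 library (red) and each control library (dark), ordered down the y axis by mean TPM, with marker shape for the replicate number. Cyp4b1 leads, and Cyp2c29, Cyp2f2, Cyp3a11, Cyp2c50 and Cyp1a2 spread widely where Cyp20a1 and Cyp2j6 lie close together.

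The remaining 44 members had a mean under 1 TPM. Of these, 25 were detected in at least 1 library and 19 were listed at 0 in all 6. The limit fell between Cyp3a13, at a mean of 1.29 TPM, and Cyp2a5, at 0.886 TPM. Of the members listed at 0 everywhere, 19 had a reference transcript, and in 11 of these more than 10% of windows of 50 bases occur in another gene. The part of unplaced reads in these zeros was not tested. Among tested members this held for 17 of 48 with a reference transcript.

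Genes that serve or regulate P450 enzymes were counted in lists. Of 18 genes of electron transfer and heme supply, 9 were above and 9 below 0, the median log2 fold change was -0.00165, and 0 had an unadjusted p under 0.05 in either direction, beside 1.64% of all genes higher and 1.7% lower. The most abundant were Cyb5r3, which encodes a cytochrome b5 reductase, at 454, 497 and 495 TPM on PLX5622 and 505, 495 and 563 TPM on control, and Cyb5a, the gene of cytochrome b5. Cyb5a stood at 462, 566 and 458 TPM on PLX5622 and at 505, 454 and 503 TPM on control. Por, the electron donor of microsomal P450 enzymes, stood at 173, 108 and 101 TPM on PLX5622 and at 128, 111 and 106 TPM on control, a log2 fold change of 0.11 (95% interval -0.35 to 0.57). Alas1, the rate-limiting enzyme of heme synthesis, was at -0.13 (95% interval -0.60 to 0.34).

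Of 19 receptors and regulators 14 were tested, with 5 above 0, 9 below and a median log2 fold change of -0.09. None of them (0) had an unadjusted p under 0.05, beside 1.64% of all genes higher and 1.7% lower. Nr1i2, the gene of PXR, was too low to test, at 0.661, 0.395 and 1.55 TPM on PLX5622 and 1.59, 0.728 and 0.862 TPM on control. Nr1i3, the gene of CAR, stood at 0.908, 2.35 and 1.38 TPM on PLX5622 and at 1.68, 2.48 and 1.68 TPM on control, a log2 fold change of -0.24 (95% interval -0.98 to 0.51). Most abundant of the list were Ahr, at 157, 129 and 183 TPM on PLX5622 and 120, 144 and 147 TPM on control, and Rxra, the partner receptor of CAR and PXR, at 81.8, 81.1 and 87.9 TPM on PLX5622 and 87.8, 89.6 and 94.8 TPM on control. Both receptor genes had intervals that spanned 0.

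Of 13 tested targets of CAR and PXR outside the P450 family, 6 were above and 7 below 0, with a median log2 fold change of -0.02. Gstt1, a glutathione transferase, was the 1 gene with an unadjusted p under 0.05, on the higher side, beside 1.64% of all genes. It stood at 28.2, 26.3 and 27.8 TPM on PLX5622 and at 25.5, 20.5 and 19.3 TPM on control, without overlap, a log2 fold change of 0.33 (95% interval 0.01 to 0.65). Akr1b7, an aldo-keto reductase, also did not overlap, at 1.13, 2.27 and 2.68 TPM on PLX5622 and 0.330, 0.842 and 0.952 TPM on control. These were 2 of the 13 genes higher without overlap, beside 4.18% of all genes tested. Ces2a, a carboxylesterase, was at 1.03 on the log2 scale (95% interval -0.25 to 2.32), with PLX5622 replicate 1 within the control range. The most abundant genes of the list were Gadd45b, a stress-induced gene, at 458, 432 and 234 TPM on PLX5622 and 670, 341 and 420 TPM on control, and Aldh1a1, a retinaldehyde dehydrogenase, at 55.1, 63.3 and 59.8 TPM on PLX5622 and 70.0, 29.4 and 33.3 TPM on control.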

How the data were processed

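RNA was measured in 6 libraries, 3 per diet, grouped by sample title. Per the submitters' processing notes the authors worked on build mm39 with featureCounts from Subread 2.0.1, STAR 2.7.10a, and DESeq2 1.32.0 in R 4.1.0. The sources used here name no annotation. The deposited expression table is in TPM, 1 column per library. The authors' comparison table gives a mean normalized count (a signal), a log2 fold change with standard error, a Wald score and a p-value before and after adjustment, quoted as deposited.

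Genes averaging 1 TPM or more were fitted on log2(TPM + 1) with limma 3.58.1 (R 4.3.3), with an intensity trend, 95% intervals and Benjamini-Hochberg adjustment at 0.05, in place of a count model because TPM are not counts. Whole reads were recovered from TPM and the deposited mean normalized counts for 15097 genes: 100% of values under 50 reads came within 0.05 of a whole number. Floors cover counting error only. The steps were tested on simulated data. Members and lists were chosen with earlier results of these data known. Values by library are given for tested members with an unadjusted p under 0.05 or without overlap, for those called in the authors' deposited table, and for the leading member of each subfamily with a tested member. Others, such as Cyp3a11, Cyp2c37, Cyp4a14, Cyp2d11, Cyp2d40, Cyp4a31 and Cyp2a5, were named after their values were seen. Promoter windows and gene order are from RefSeq (GRCm38.p6), transcripts from GENCODE. Libraries of 1 diet all differed by more than sampling noise (chi-square per degree of freedom at least 16.0).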

Additional observations from a re-analysis of the deposited data

How the results depend on the processing

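The number of genes called by limma was 0 under every alternative run: pseudocounts of 0.1 and 5 TPM, no filter or a filter at 5 TPM, quantile or median-of-ratios scaling, no trend, robust fitting, library weights, a replicate block, the hepatocyte covariate, voom on recovered reads and leaving out each library. At an unadjusted p under 0.05 it had 459 genes, and between 305 and 852 over these alternatives. The number of P450 members higher at an unadjusted p under 0.05, 4 as reported, was 7 with the hepatocyte level as covariate and between 3 and 8 without single libraries. Without PLX5622 replicate 1 it was 8, adding Cyp2d9, Cyp2d13, Cyp2c37 and Cyp3a11, and without control replicate 1 it was 7. Cyp2c37 reached the limit for testing only through its PLX5622 libraries. The number lower, 0 as reported, was 3 without PLX5622 replicate 3 (Cyp2d26, Cyp2j5 and Cyp2f2, beside 1.79% of all genes), 2 without a filter (beside 2.04%) and at most 1 otherwise. The median log2 fold change of the members, 0.12, lay between 0.03 and 0.27 without single libraries and between 0.09 and 0.28 under the other alternatives. Cyp2b10, Cyp2c29 and Cyp2c54 had an unadjusted p under 0.05 in every alternative in which they were tested, with a smallest adjusted p of 0.131 (Cyp2c54, limma). The log2 fold change of Cyp2b10 was lowest, 0.90, when 5 TPM were added before the log and highest, 6.91, in voom. The cause of these shifts was not tested. Added after seeing the data were the count of members without overlap per hepatocyte TPM and the Cyp2b10 bound without single libraries.

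The replicate numbers are shared by the diets, but nothing in the labels says that they pair the animals. Deviations of same-numbered libraries correlated at 0.196, 0.136 and 0.0873 over genes, and each library correlated best with its own number. With the replicate block 4 members were higher and 1, Cyp2d40, lower at an unadjusted p under 0.05, with 0 genes called. The background was larger in that fit. Of its 13739 genes, 821 had an unadjusted p under 0.05 in either direction, against 459 without the block.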
